A study of Arabidopsis thaliana with 6 samples.

Results

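The 2 replicate 1 arrays of the series, 1 of WT and 1 of 35S::OsHOX24 seedlings, were compared with the 4 arrays of replicates 2 and 3 of both genotypes. The study profiled total RNA of 10-day-old Arabidopsis thaliana seedlings of ecotype Columbia on Affymetrix GeneChip arrays, with 3 arrays per genotype. WT carried no transgene, and 35S::OsHOX24 seedlings carried the rice HD-ZIP I homeobox gene OsHOX24 under the 35S promoter of cauliflower mosaic virus, which is active in most tissues. The transgenic arrays came from 1 line (HZIP1-2.3 in the paper). All seedlings grew on MS medium with 14 h light and 10 h dark per day, under control conditions, and the paper describes the arrays of a genotype as independent biological replicates. What a replicate number shares between genotypes was not given in the sources used here.

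Replicate 1 was chosen from the same values that are described here, namely its high signals for GI, COR15A and COR15B in both genotypes. Its differences from the other arrays are therefore given as a description, with no test. Each difference is the mean of the 2 replicate 1 arrays minus the mean of the 4 others on the log2 scale. It came from a fit with genotype as a covariate. It is followed by the moderated standard error (SE) of that fit over 6 arrays. In this SE, limma draws the variance of each probe set towards a common value estimated from all probe sets. Of 22746 probe sets, the 11373 in the upper part of the signal range were considered, those with a mean log2 signal over 7.29, which is the median over probe sets. A probe set was counted where both replicate 1 arrays lay outside the range of the 4 others and the difference was at least 2-fold. By this rule, 116 probe sets were higher (1.02%) and 81 were lower (0.712%) in replicate 1. These shares are the background of the comparison itself. A name of a single gene was available for 52 of the higher and 34 of the lower, giving 86 of the 6032 named genes above the median signal.

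GIGANTEA (GI) is a nuclear protein of the plant circadian clock that is known to reach its highest level late in the day and to link the clock to flowering by day length. COR15A and COR15B are small proteins of the chloroplast stroma that protect membranes during freezing, and their genes are classical targets of the CBF factors of the cold response. Clock factors are known to set how strongly the CBF pathway responds at different times of day. In the whole seedlings used here, less RNA per cell and fewer cells of a type cannot be told apart.

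COR15A had the largest difference of the 6032 named genes. Its log2 signal was 10.84 in replicate 1 of WT and 9.67 in replicate 1 of 35S::OsHOX24, against 5.20 and 5.95 in the other WT arrays and 5.66 and 6.86 in the other transgenic arrays. The difference was 4.34 ± 0.61 (SE), or 20.2-fold, and the lower replicate 1 array stood 2.81 above the highest of the others. It was 5.26 within WT and 3.41 within 35S::OsHOX24.

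COR15B followed, with 11.15 and 10.58 in replicate 1 of WT and of 35S::OsHOX24. The other arrays had 6.23 and 7.52 in WT and 7.64 and 7.15 in the transgenic line. The difference was 3.73 ± 0.50 (SE), or 13.2-fold, with a gap of 2.93 between the groups. COR15A and COR15B are neighbours in the RefSeq gene order and similar in sequence. Neither probe set is marked as able to cross-hybridize, but whether each also read the other transcript was not tested.

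GI ranked 3 among the named genes. Its log2 signal was 10.36 and 9.90 in the replicate 1 arrays of WT and 35S::OsHOX24, against 7.77 and 6.63 in WT and 6.39 and 6.61 in 35S::OsHOX24 in the other arrays. The difference was 3.28 ± 0.39 (SE), or 9.72-fold, and it was of similar size in WT (3.16) and in 35S::OsHOX24 (3.40). No other named gene above the median signal differed by 3 or more on the log2 scale in either direction.

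**Figure D1:**
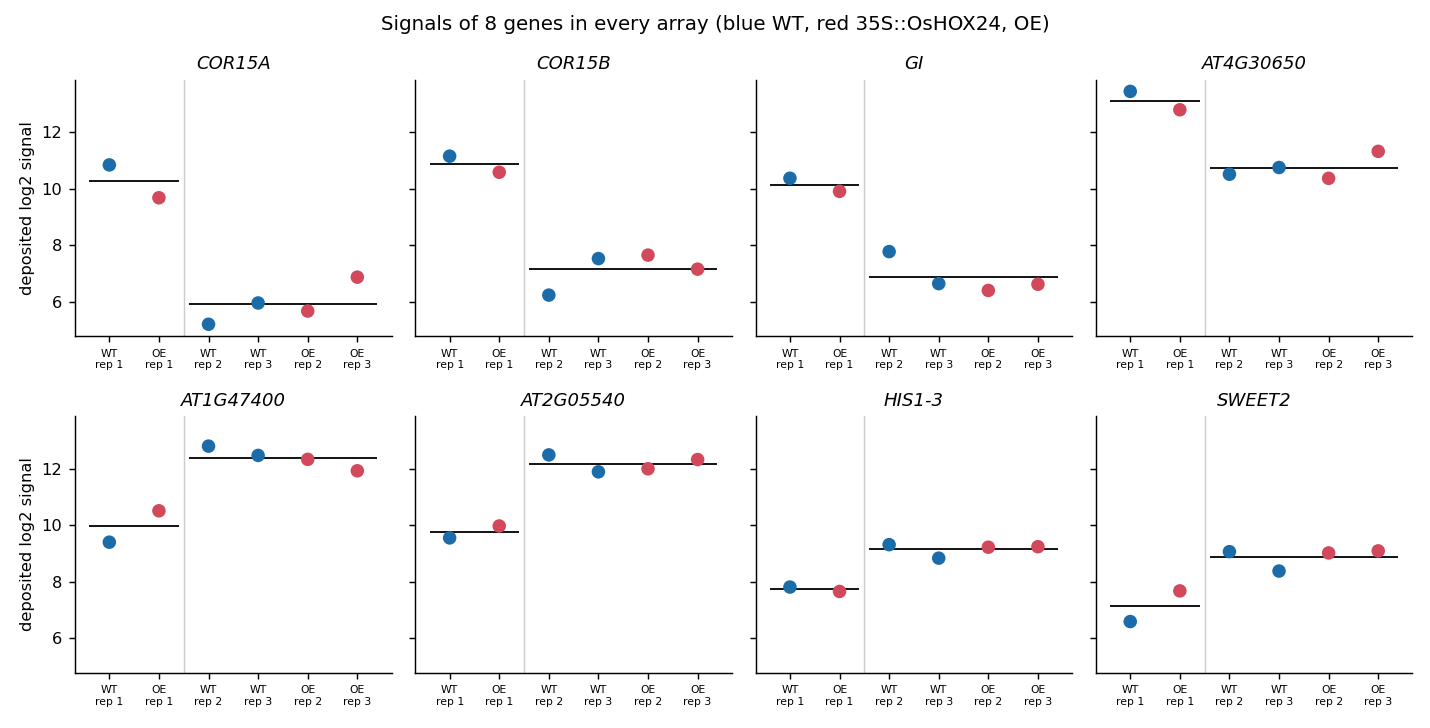
Deposited log2 signal (vertical axis) of 8 genes in every array (horizontal axis), WT in blue and 35S::OsHOX24 (OE) in red; horizontal bars are the means of the 2 replicate 1 arrays and of the 4 others. In every panel both replicate 1 arrays lie outside the range of the others, from COR15A (a difference of 4.34) to AT1G47400 (a difference of -2.43).

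AT4G30650 stood next to these genes in rank and was already strong in every array. It measured 13.44 and 12.79 in the replicate 1 arrays of WT and 35S::OsHOX24, and 10.51, 10.74, 10.36 and 11.32 in WT replicates 2 and 3 and transgenic replicates 2 and 3, in this order. The difference was 2.38 ± 0.40 (SE), with a gap of 1.47. AT5G57760 had 10.76 and 10.44 against 8.64, 8.53, 8.42 and 7.35 in the same order, a difference of 2.37 ± 0.38 (SE). These loci carry no gene name in the annotation used.

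Other higher genes whose product is known were PDF2.1, ARPN, ARL, ATPMEPCRB, EXLA1 and EXO, which were picked after their values were seen. PDF2.1, a member of the plant defensin family of small cysteine-rich proteins, was at 11.05 and 11.02 in replicate 1 and at 9.68, 8.54, 8.36 and 9.81 elsewhere, a difference of 1.94 ± 0.55 (SE). ARPN, which encodes plantacyanin, a small secreted copper protein, was at 8.76 and 8.69 against 6.59, 7.00, 6.80 and 7.49 (1.76 ± 0.33). Both genes had replicate 1 values that nearly coincided between genotypes and a gap of more than 1 to the other arrays.

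ARL (ARGOS-like), a promoter of cell expansion, was at 10.55 in WT replicate 1 and 11.07 in 35S::OsHOX24 replicate 1, against 9.20, 9.60, 8.87 and 8.73 (1.71 ± 0.36). The pectin methylesterase gene ATPMEPCRB, also called PME41, was at 10.23 and 10.05 against 8.59, 8.02, 8.13 and 9.54 (1.57 ± 0.50). EXLA1, an expansin-like cell wall protein, differed by 1.08 ± 0.41, and EXO (EXORDIUM), a brassinosteroid-responsive growth gene, by 1.02 ± 0.50 with a gap of only 0.18 to the highest other array. Thus ARL had a gap of 0.95, whereas EXO lay at the 2-fold limit and close to WT replicate 3 at 11.71. In the auxin-induced growth list, 0 of the 4 measured genes were past the rule in either direction, and the expansin gene EXPA8 of that list was at -1.07 with overlap.

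Close relatives of these genes were looked up after the values had been seen. All 3 measured expansin-like A genes had positive differences, 1.08 for EXLA1, 0.86 for EXLA2 and 0.29 for EXLA3, and the arrays overlapped only for EXLA3. Of 6 measured PDF2 genes, only PDF2.1 was past 2-fold, and the 5 others lay between -0.61 and 0.54.

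Photosynthesis and starch were represented by single members. LHCB4.2, a minor antenna protein of photosystem II (CP29), was at 12.61 and 12.44 in replicate 1 and at 10.83, 11.27, 11.20 and 11.63 in the other arrays, a difference of 1.29 ± 0.31 (SE). Its paralogs did not share this size: the difference was 0.38 ± 0.28 for LHCB4.1, which had no overlap, and -0.51 ± 0.33 for LHCB4.3, which overlapped. AT5G26570, the phosphoglucan water dikinase that acts in starch breakdown, was at 11.66 in each replicate 1 array and at 10.55 to 10.98 elsewhere (0.87 ± 0.24), below the 2-fold limit. AT4G24450, which carries water dikinase among its RefSeq synonyms, was at 9.45 and 8.18 against 7.29, 7.67, 7.24 and 5.98 (1.77 ± 0.43). DPE1, the plastid disproportionating enzyme that converts short glucans, differed by 0.63 ± 0.36 without overlap.

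The remaining higher genes among the 15 with the largest differences were loci without a gene name in the annotation used. They were AT1G11210, AT5G62280, AT1G13930, AT5G18470 and AT1G33970, with differences of 1.56 to 1.76. AT1G11210 stood out for the size of its genotype contrast within replicate 1, since it was at 9.25 in WT and at 7.82 in 35S::OsHOX24 (other arrays 6.50 to 7.22). Its difference was thus 2.39 within WT and 1.13 within the transgenic line. Over all 52 higher genes the median difference was 1.28, 16 were at least 1.5 and 5 at least 2 on the log2 scale.

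**Figure D2:**
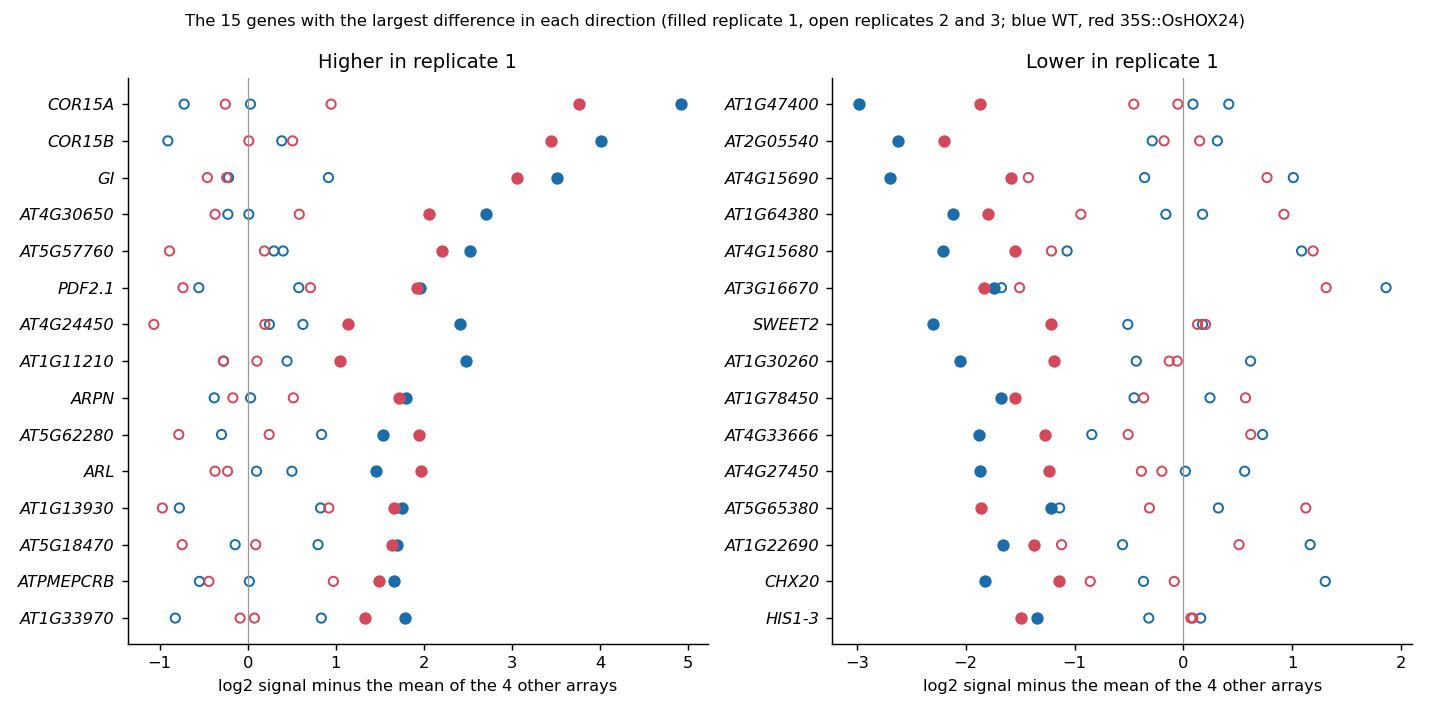
The 15 named genes with the largest difference in each direction (vertical axis), each array plotted as its log2 signal minus the mean of the 4 replicate 2 and 3 arrays (horizontal axis); filled points are replicate 1, open points replicates 2 and 3, blue WT and red 35S::OsHOX24. The filled points lie outside the open ones in every row, with a gap of 2.93 for COR15B and of only 0.07 for AT3G16670.

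The lower genes had smaller differences than the leading higher ones. AT1G47400 and AT2G05540, both without a gene name in the annotation used, had the largest. AT1G47400 was at 9.40 in WT and 10.51 in 35S::OsHOX24 in replicate 1, against 12.80, 12.47, 12.33 and 11.93 in WT replicates 2 and 3 and transgenic replicates 2 and 3. This was a difference of -2.43 ± 0.45 (SE), or 5.38-fold, and it was -3.23 within WT and -1.62 within the transgenic line. AT2G05540 was at 9.55 and 9.97 against 12.49, 11.89, 12.00 and 12.33 (-2.41 ± 0.31), with the widest gap among the lower genes (1.92).

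SWEET2, HIS1-3 and CHX20 were among the named lower genes. SWEET2, a sugar transporter of the vacuole, was at 6.59 in WT and 7.68 in 35S::OsHOX24 in replicate 1 and at 9.06, 8.38, 9.02 and 9.09 elsewhere, a difference of -1.76 ± 0.34 (SE). The linker histone gene HIS1-3, known for its induction by drought, was at 7.81 and 7.66 against 9.31, 8.83, 9.22 and 9.24 (-1.42 ± 0.27). CHX20, a cation/proton exchanger known from guard cells, was at 5.98 and 6.65 against 9.10, 7.43, 6.94 and 7.71 (-1.48 ± 0.66), and the difference was -0.67 without WT replicate 1. HIS1-3 had a gap of 1.02 and nearly equal values within each group, whereas the other arrays of CHX20 spread over more than its difference.

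Of the 10 measured SWEET genes, which were looked up after the values had been seen, 9 had negative differences and only SWEET2 was past 2-fold without overlap. The median over these genes was -0.59, beside a median of 0.02 over the 6032 named genes above the median signal, and 5 of the 10 had signals below that median.

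MCCA and IVD, which act in the breakdown of leucine in mitochondria, were lower. MCCA, the biotinylated subunit of 3-methylcrotonyl-CoA carboxylase, was at 9.36 and 9.81 in replicate 1 and at 10.78, 11.30, 11.14 and 10.08 in the other arrays, a difference of -1.24 ± 0.44 (SE). IVD, isovaleryl-CoA dehydrogenase, which acts upstream of it, was at 9.03 and 9.38 against 10.50, 10.09, 10.50 and 9.98 (-1.06 ± 0.30). Of 6 measured genes of branched-chain amino acid breakdown and its electron transfer, chosen after the values had been seen, all had negative differences, but the 4 others overlapped, among them MCCB at -0.15 and ETFQO at -0.61. MCCB encodes the partner subunit of MCCA in the same enzyme.

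AT4G15690 and AT4G15680 are neighbours in the gene order and were both lower, by 2.14 and 1.88 on the log2 scale. In AT4G15690 the values were 5.49 and 6.60 in replicate 1, 9.19 and 7.83 in WT replicates 2 and 3, and 6.76 and 8.95 in 35S::OsHOX24 replicates 2 and 3. The lowest other array was thus only 0.16 above transgenic replicate 1. These loci and the COR15A and COR15B pair were the only adjacent genes among the 86, out of 1303 adjacent pairs of named genes above the median signal.

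Further named lower genes were SKP2A, an F-box protein of the cell cycle (-1.13 ± 0.43), and, among genes listed by locus alone, AT1G64380, AT3G16670, AT1G30260, AT1G78450, AT4G33666, AT4G27450, AT5G65380 and AT1G22690 with differences of -1.96 to -1.51. AT3G16670 was low in 4 arrays rather than in 2. It was at 6.38 and 6.29 in replicate 1 but also at 6.45 in WT replicate 3 and 6.61 in 35S::OsHOX24 replicate 2, against 9.98 and 9.43 in WT replicate 2 and transgenic replicate 3. Its difference of -1.79 ± 1.25 (SE) therefore rested on these last arrays. AT4G15680 was also highest there, at 9.64 and 9.75, with 7.49 in WT replicate 3, 7.34 in transgenic replicate 2 and 6.34 and 7.01 in replicate 1. AT1G22690 was at 12.38 and 11.73 there, with 10.66, 10.1, 9.56 and 9.84 in the same order. AT1G64380 was instead highest in transgenic replicate 2 (9.15) and AT4G27450 in WT replicate 3 (11.87).

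The width of the gap varied among the members. It was at least 1 on the log2 scale for 9 of the 52 higher and 4 of the 34 lower genes, and below 0.2 for 6 and 8 of them. The array nearest to replicate 1 also differed. Among the higher genes it was WT replicate 2 or transgenic replicate 3 for 34 of 52, and among the lower genes WT replicate 3 or transgenic replicate 2 for 22 of 34. In addition, 13 higher and 22 lower named genes above the median signal were at least 2-fold apart but overlapped, and are not counted among the 86. The largest of the lower was ARR15, a cytokinin response regulator, at 5.36 and 6.65 against 7.43, 8.74, 9.32 and 6.48, where transgenic replicate 3 lay below transgenic replicate 1. ARR15 was singled out after its values were seen.

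The 2-fold limit cut through a continuous range of differences. The genes just inside it were AT5G58900 (1.03), AT5G57340 (1.04) and EXO (1.02) among the higher and IVD (-1.06), AT3G62820 (-1.05) and AT1G75810 (-1.03) among the lower. Just outside were AT3G59080 (0.997), AT3G09860 (0.99) and AT1G19715 (0.99), and on the lower side PPDK (-0.98), AKINBETA1 (-0.99) and AT3G60080 (-0.99). PPDK is pyruvate orthophosphate dikinase, and AKINBETA1 is a regulatory subunit of SnRK1, the kinase of the plant energy starvation response. AKINBETA1 was at 10.28 and 10.69 in replicate 1 and at 11.64, 11.81, 11.41 and 11.05 elsewhere. Irrespective of size, both replicate 1 arrays lay above all others for 1015 probe sets (8.92%) and below all others for 784 (6.89%).

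The clock, cold and other lists held 331 genes in 24 lists. Of these, 41 had a probe set with a single-gene name here and are called measured, and 7 lists had none. Since 8730 probe sets had no gene name here, other listed genes may be on the arrays without a name. Of these 41 genes, 5 were higher by the rule when the filter on signal was left out, namely GI, COR15A, COR15B, LHCB4.2 and WRKY53, and 2 were lower, HYH and ATHSP22.0. WRKY53, HYH and ATHSP22.0 had signals below the median. Over all 22746 probe sets, the rule without the filter gave 547 higher (2.4%) and 487 lower (2.14%).

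Of the clock genes, GI and AT5G52660 of the dawn list were measured, and AT5G52660 was at 6.37 and 6.87 in replicate 1 and at 6.73 to 7.80 in the other arrays (-0.43 ± 0.42). Of 3 measured outputs of clock and light, COR27 differed by 0.51 ± 0.37, AT4G33980 by 0.60 ± 0.41 and AT1G69570 by -1.01 ± 0.58 at very low signals (2.68 to 4.64). All 3 overlapped. COR27, a cold-regulated gene that acts on the clock, was at 11.41 and 10.84 against 10.67, 11.23, 10.74 and 9.84.

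The other measured members of the cold list did not share the difference of the COR15 genes. COR47, a dehydrin, was at 11.87 and 12.02 in replicate 1 and at 12.42, 11.81, 11.59 and 12.36 in the other arrays, a difference of -0.10 ± 0.36 (SE). LTI30, also a dehydrin, was at 9.90 and 9.80 against 10.88, 9.02, 8.43 and 10.47 (0.15 ± 0.79). In these 2 genes both replicate 1 arrays lay within the range of the others, so the high level of the COR15 pair was not shared by every measured gene of the cold list.

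HYH, a bZIP factor of light signalling, was at 5.34 and 6.03 in replicate 1 and at 6.93, 6.91, 7.35 and 7.21 elsewhere, a difference of -1.42 ± 0.24 (SE). WRKY53, a regulator of leaf senescence, was at 8.10 and 7.33 against 6.50, 6.61, 5.88 and 5.72 (1.54 ± 0.23). In neither gene did the groups overlap. Of 6 measured genes of the touch, wound and calcium list, only WRKY53 had no overlap, and the median of the list was 0.29. Of the iron list, PYE (POPEYE), a bHLH regulator of the iron deficiency response, differed by -0.97 ± 0.38 without overlap, and BHLH101, another bHLH factor of that response, by -1.28 ± 0.93 with overlap. The difference of both was larger in WT.

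Organ markers were represented by RCA, rubisco activase, for green tissue, and EXPA7, a root hair expansin. RCA differed by 0.02 ± 0.27, with 14.28 and 14.74 in replicate 1 against 14.37 to 14.70 in the others. EXPA7 was at 2.86 and 4.69 against 3.28 to 5.47 (-0.95 ± 0.72). The seed storage list had no measured gene. Whether the proportions of organs differed between the arrays was not tested beyond these markers.

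The replicate 1 difference was then computed within each genotype, where no arrays are shared. Of probe sets above the median signal, 293 were at least 2-fold higher in WT replicate 1 than the mean of the other WT arrays and above both of them (2.58%), and 120 were so in 35S::OsHOX24 (1.06%). In all, 83 were in both lists, which was 28.3% of the WT list and 69.2% of the transgenic list. On the lower side the lists held 215 (1.89%) and 148 (1.3%) probe sets and shared 52, which was 24.2% of the WT list and 35.1% of the transgenic list. Past 2-fold the opposite way in 35S::OsHOX24 were 4 of the 293 (1.37%) and 1 of the 215 (0.47%). The shares over all probe sets above the median signal were 1.3% lower and 1.06% higher in that line.

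Across the 11373 probe sets, the difference in WT and that in 35S::OsHOX24 had a Pearson correlation of 0.46. It was 0.34 when the 197 members were left out, and 0.11 over all 22746 probe sets. The same measure was higher for pairs of other arrays, at 0.68 for WT replicate 2 with 35S::OsHOX24 replicate 3 and 0.62 for WT replicate 3 with 35S::OsHOX24 replicate 2, so a shared deviation across genotypes was not particular to replicate 1. Probe sets are not independent replicates, so no p is given. The difference was larger in WT than in 35S::OsHOX24 for 38 of the 52 higher and 27 of the 34 lower genes, with medians of 1.42 and 1.16 for the higher and -1.60 and -1.12 for the lower.

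**Figure D3:**
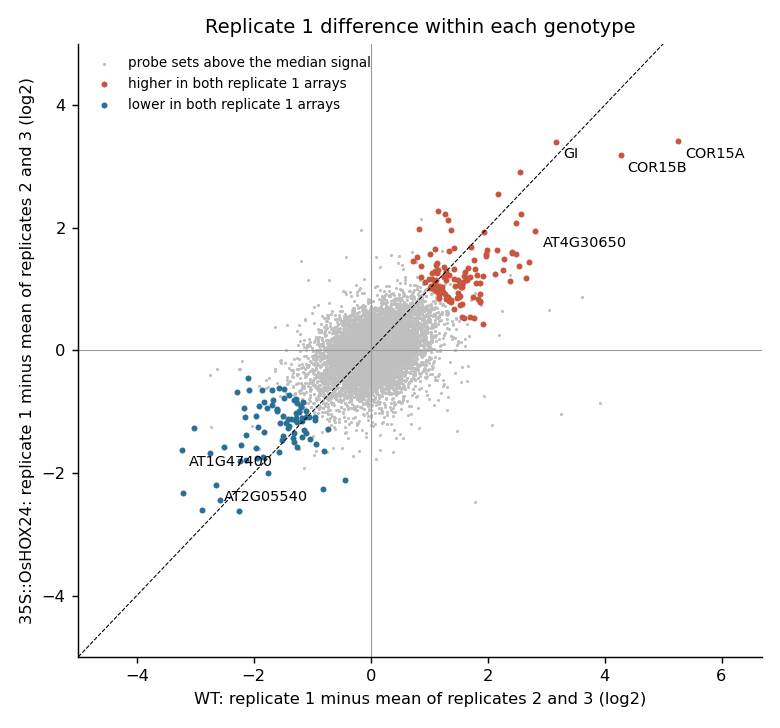
Replicate 1 minus the mean of replicates 2 and 3 (log2) in WT (horizontal axis) and in 35S::OsHOX24 (vertical axis) for the 11373 probe sets above the median signal; coloured points are the 116 higher and 81 lower probe sets and the dashed line marks equal differences. The correlation was 0.46, and GI lies near the line while COR15A (5.26 and 3.41) lies on its WT side.

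Whether the size of the replicate 1 difference depended on the genotype was tested as an interaction with limma over all 22746 probe sets. With Benjamini-Hochberg adjustment, 0 probe sets (0%) passed, the lowest adjusted p was 0.96, and 882 had an unadjusted p under 0.05, fewer than the 1137 expected by chance. The interaction was -1.85 for COR15A, 1.62 for AT1G47400 and 0.24 for GI. Replicate 1 was chosen for signals high in both genotypes, and the 86 genes had to differ the same way in both. This limits the interaction of these genes, so no p is given for them. Among the 86 genes, AT1G60590, picked after its values were seen, had an interaction of -1.67. It was at 7.53 in WT and 7.19 in 35S::OsHOX24 in replicate 1, and at 7.92 and 8.01 in the other WT arrays against 9.16 and 9.43 in the other transgenic arrays. With 1 replicate 1 array per genotype, the test had only 2 residual degrees of freedom.

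Replicate 1 lay above both other arrays in WT and below both in 35S::OsHOX24 in 3 of the 4 measured genes of the anthocyanin list. The same held for 2 of the 3 measured genes of the jasmonate list, the defensin genes PDF1.2 and PDF1.2b. Over the 11373 probe sets above the median signal, 10.8% lay on opposite sides in the genotypes in one or the other order. This share does not cover the anthocyanin genes with the pattern, whose mean signals lay below the median. Opposite moves were more frequent at low signals. Of probe sets past 2-fold higher in WT, 15.7% were past 2-fold lower in 35S::OsHOX24 over all probe sets, against 1.37% above the median. DFR, dihydroflavonol reductase, was at 7.57 in WT replicate 1 against 5.37 and 6.15 in the other WT arrays, and at 4.96 in 35S::OsHOX24 replicate 1 against 5.77 and 6.89. UF3GT and AT4G14090 of the anthocyanin list had differences of 2.27 and 1.94 in WT and of -1.34 and -1.84 in 35S::OsHOX24. The fourth gene, UGT78D2, was at 8.70 in WT replicate 1, between the other WT arrays at 8.82 and 8.28, and at 7.94 against 8.35 and 9.30 in 35S::OsHOX24. PDF1.2b was at 8.79 against 6.76 and 7.27 in WT, and at 5.42 against 7.96 and 7.85 in the transgenic line. PDF1.2 was at 8.21 against 6.72 and 7.07 in WT, and at 6.71 against 7.88 and 7.49 in the transgenic line. The PDF1.2b probe set is marked as able to cross-hybridize, and whether it also read PDF1.2 was not tested. These genes may therefore not be separate cases. THI2.1, the remaining measured gene of the jasmonate list, did not share the pattern. Its replicate 1 array lay above both others in WT. In 35S::OsHOX24 it was at 4.52, between the other arrays at 4.33 and 4.56. None of these interactions passed the adjusted threshold (limma, adjusted p = 0.96 for PDF1.2b, 0.999 for AT4G14090 and 1 for DFR, UF3GT, UGT78D2 and PDF1.2). PDF1.2, PDF1.2b and UGT78D2 had mean signals above the median, and DFR, UF3GT, AT4G14090 and THI2.1 below it.

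**Figure D4:**
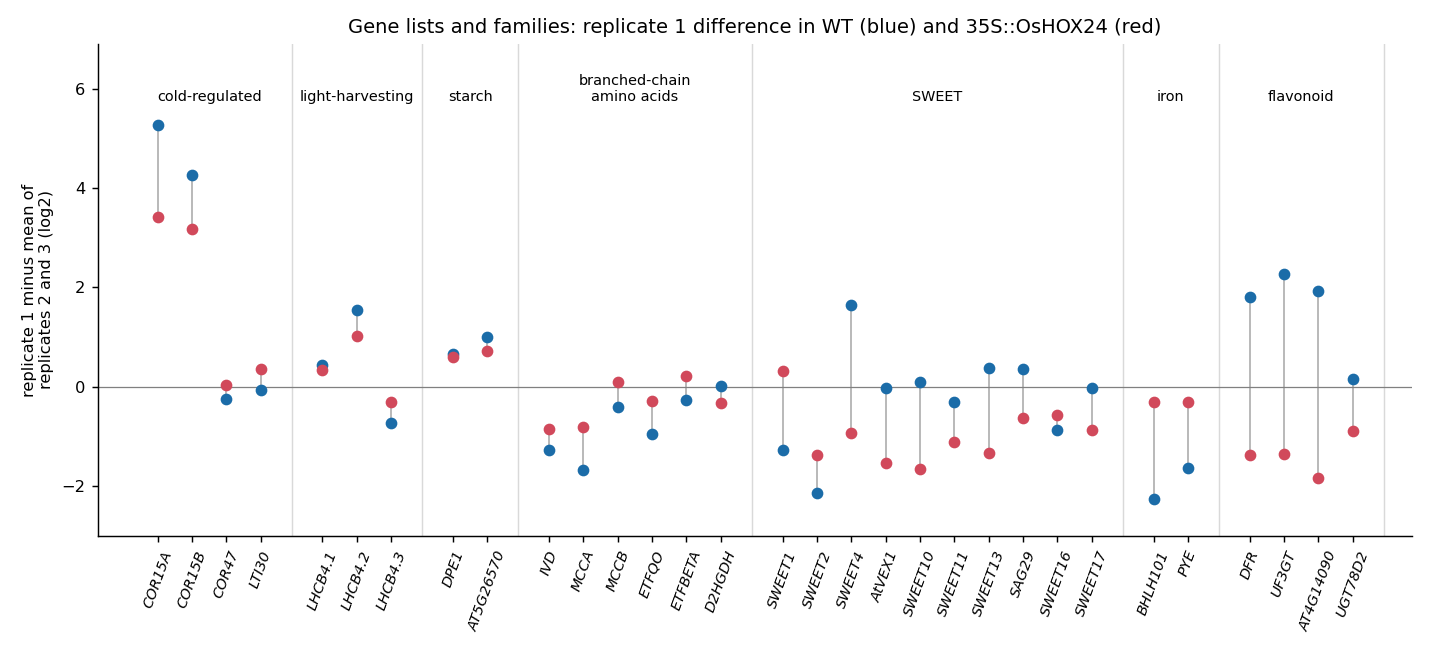
Replicate 1 minus the mean of replicates 2 and 3 (log2, vertical axis) in WT (blue) and 35S::OsHOX24 (red) for each measured gene of 5 lists and 2 families (horizontal axis). COR15A and COR15B stand apart from COR47 and LTI30, and DFR, UF3GT and AT4G14090 lie above 0 in WT and below 0 in 35S::OsHOX24, while UGT78D2 is near 0 in WT (0.15).

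Genotype is balanced over the replicate numbers, so the genotype difference does not depend on how replicate 1 was chosen. With replicate 1 as a term, the transgenic line had 244 higher (1.07%) and 389 lower (1.71%) probe sets at the thresholds the study used (2-fold or more, unadjusted p of at most 0.05), against 208 and 367 without the term. After quantile normalization the split was 313 and 311. With limma and Benjamini-Hochberg adjustment 0 passed in either fit, with a lowest adjusted p of 0.69 with the term and 0.21 without it, and 823 and 785 probe sets had an unadjusted p under 0.05, against 1137 expected by chance. The methods' t-test gave 112 and 180 probe sets at the same thresholds and 0 after adjustment.

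Of the 197 probe sets apart in replicate 1, 0 were higher and 1 was lower by genotype, beside 7 and 15 of all 11373 above the median signal, and nothing was read from counts this small. The median size of the genotype difference was 0.17 for the higher and 0.21 for the lower genes, and 0.15 over the 6032 named genes. For the leading genes it was 0.07 (COR15A), 0.16 (COR15B) and -0.62 (GI), and none was called.

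In the correlation of whole arrays over the 11373 probe sets, WT replicate 1 and 35S::OsHOX24 replicate 1 reached 0.964, rank 2 of 15 pairs. The 4 other arrays also formed close pairs across genotypes, at 0.971 for WT replicate 3 with 35S::OsHOX24 replicate 2 and 0.964 for WT replicate 2 with 35S::OsHOX24 replicate 3. WT replicate 1 correlated at 0.912 to 0.938 with its own genotype, and 35S::OsHOX24 replicate 1 at 0.931 to 0.953.

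Control features of the arrays were examined beside these results. The linear signals of each array had a 2% trimmed mean of 500.05 to 500.06, and the median log2 signal was 7.42 and 7.27 in replicate 1 and 7.25 to 7.31 in the others. The GAPDH difference between 3' and 5' probes, which grows as 5' ends are lost, was 3.25 and 3.29 in replicate 1 and 1.63 to 4.80 in the others, and the means of the poly-A and hybridization spike-ins also overlapped. Of the 64 control features, 5 lay above and 1 below all other arrays in both replicate 1 arrays, and 2 of them by at least 2-fold. The shares over the 11373 probe sets above the median signal were 8.92% above and 6.89% below. Of all 22746 probe sets, 2.4% were higher by at least 2-fold. Nothing was read from control counts this small. The 5S ribosomal RNA feature was at 5.09 and 5.18 against 3.57 to 4.15, and the U12639 feature at 4.62 and 4.29 against 0.74 to 2.28, both at low signals. Their part in the difference of replicate 1 was not tested.

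**Figure D5:**
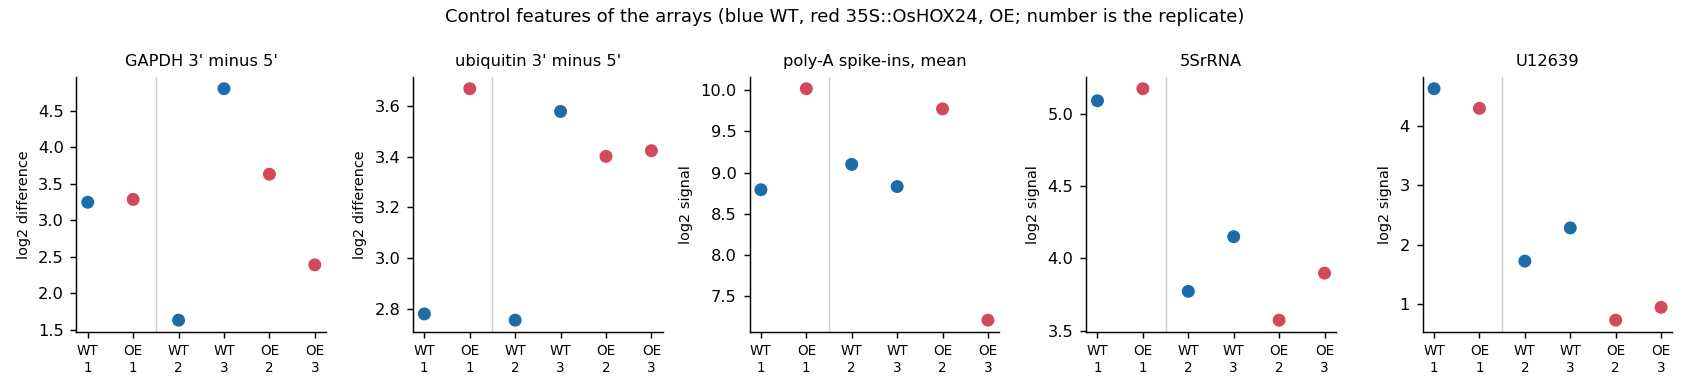
Control measures of the arrays (vertical axes, log2) in WT (blue) and 35S::OsHOX24 (red, OE), with replicate 1 left of the line. Replicate 1 lies within the range of the other arrays for the GAPDH difference (3.25 and 3.29 against 1.63 to 4.80) and above it for 5S ribosomal RNA and U12639.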

How the data were processed

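The authors computed signals of 6 Affymetrix arrays with MAS5, which scales each array, and the values deposited are 1 log2 number per probe set and array. The MAS5 version was not given in the sources used here. These values were used without further normalization. After 64 control probe sets were left out, 22746 were fitted with limma 3.58.1 (lmFit, eBayes) in R 4.3.3, with genotype and replicate 1 as terms and Benjamini-Hochberg adjustment. No p was computed for the replicate 1 term. No array was dropped or imputed, and p-values measure only the spread between these arrays. Precision is limited by the small number of arrays.

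A platform table gave 13513 probe sets a single gene, 503 several and 8730 none here. Symbols were updated through RefSeq (TAIR10.1), which matched 13436, and no coordinates are printed. A gene with several probe sets was read from that with the highest mean signal.

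The genes named were GI, COR15A and COR15B, up to 15 genes per direction with the largest difference above the median signal and no overlap, all measured clock and cold genes, up to 4 genes of each other list, the 5 lowest p of the interaction and 3 genes on each side of the 2-fold limit. Other members were added where a role is known, after their values were seen, as were the families of relatives. The members and lists were chosen with earlier results of these data known.

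Alternatives were quantile normalization, median centring, log2(signal + 16), other filters and a 1.5-fold limit, a variance trend, the methods' t-test (Student), the replicate number as a block, and leaving out arrays. The script was tested on simulated data. Promoter motifs were not analysed here.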

Additional observations from a re-analysis of the deposited data

Results flagged for a closer look

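In 3 of the 83 genes examined, 1 of the 4 replicate 2 and 3 arrays stood far from the other 3, a pattern that chance gives in about 1 of 20 such groups. In SWEET2, WT replicate 3 lay at 8.38 and the others at 9.02 to 9.09, so that its gap took 0.897 of the range. The share was 0.849 for AT5G52660, where WT replicate 2 was high at 7.80, and 0.835 for AT5G57760, where 35S::OsHOX24 replicate 3 was low at 7.35.

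In 11 genes, replicate 1 lay on one side of both other WT arrays and on the opposite side of both other 35S::OsHOX24 arrays. The difference between the genotypes, 35S::OsHOX24 minus WT on the log2 scale, was tested as the interaction with limma and did not pass the adjusted threshold in any of them (lowest adjusted p = 0.96). It was -4.26 for PDF1.2b, -3.78 for AT4G14090, -3.61 for UF3GT, -3.18 for DFR and -2.29 for PDF1.2, all higher in WT replicate 1 and lower in transgenic replicate 1. For RCA it was 0.57, with the opposite order. The 5 genes with the lowest interaction p had the widest values, -6.91 for AT4G32780, -6.76 for AT1G24000, -6.56 for AT5G17150, -6.25 for AT1G75290 and -6.00 for AT1G60240, all at mean signals far below the median. Of the 11373 probe sets above the median signal, 1227 (10.8%) went opposite ways in this manner and 2719 (23.9%) went the same way. These shares are no background for genes below the median signal, nor for the 5 genes picked by their low interaction p.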

How the results depend on the processing

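The differences of GI, COR15A, COR15B and the other 27 leading genes kept their sign under all 9 alternatives tried for each. When arrays were left out, the sign could not change, since these genes were picked for replicate 1 arrays outside the range of the others. The kept sign is therefore no measure of stability. Leaving out arrays gave 3.41 to 5.26 for COR15A, the lowest without WT replicate 1 and the highest when 35S::OsHOX24 replicate 1 was left out. The same omissions gave 1.13 to 2.39 for AT1G11210, 1.15 to 2.27 for ARL, -3.23 to -1.62 for AT1G47400 and -2.16 to -0.95 for AT4G27450. Values also moved by over 1.5 times for CHX20 (-1.48, and -0.67 without WT replicate 1 or -2.29 without 35S::OsHOX24 replicate 1), AT4G15690 (-2.14, and -1.26 without WT replicate 1), AT3G16670 (-1.79, and -1.02 without WT replicate 2 or -1.19 without 35S::OsHOX24 replicate 3) and AT5G65380 (-1.54, and -0.81 without 35S::OsHOX24 replicate 1). The flavonoid list's median of 0.14 became -1.35 without WT replicate 1 but 1.88 when 35S::OsHOX24 replicate 1 was left out, and that of the jasmonate list went from 0.17 to 1.78 without the latter.

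The counts moved more. The 116 higher and 81 lower probe sets became 547 and 487 without the signal filter, 54 and 40 above the 75th percentile, and 377 and 284 at 1.5-fold. Leaving out single arrays gave 110 to 259 higher and 63 to 197 lower. The counts were 259 and 197 without 35S::OsHOX24 replicate 1 and 110 and 129 without WT replicate 1, and the cause of this contrast was not tested. The lower count was 131 without 35S::OsHOX24 replicate 2 and 133 without WT replicate 3. Median centring gave 98 and 99, while shifting the median of all probe sets by less than 0.1.

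The genotype counts of 244 higher and 389 lower became 29 and 83 with log2(signal + 16) and 112 and 180 with the methods' t-test. A fit of the probe sets above the median signal alone gave 11 and 26, where the fit of all probe sets called 7 and 15 of them. A variance trend gave 157 higher. With single arrays left out, the counts were 274 to 357 higher and 405 to 610 lower (610 without WT replicate 2). No interaction and no genotype difference passed the adjusted threshold with limma or the t-test under any alternative, with lowest adjusted p of 0.92 to 1 and 0.21 to 1. Without 1 of the replicate 1 arrays, the interaction could not be estimated.

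With the replicate number as a block (replicate block), the genotype counts were 259 and 419. Deviations of same-numbered arrays from their genotype means correlated at 0.11 for replicate 1, -0.20 for replicate 2 and -0.18 for replicate 3 over all probe sets. Above the median signal the values were 0.46, -0.50 and -0.53. Same-numbered arrays thus deviated alike for replicate 1 but not for replicates 2 and 3. The deviations within a genotype sum to 0, so these values are not independent. The correlation above the median was 0.68 for WT replicate 2 with 35S::OsHOX24 replicate 3 and 0.62 for WT replicate 3 with 35S::OsHOX24 replicate 2.

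Signals near the MAS5 floor, with 163 to 512 values at 0 per array, limit low genes. Replicate 1 has 1 array per genotype, so its spread within a genotype is unknown. Only 41 of 331 listed genes had a probe set with a single-gene name here, and unnamed probe sets were not assigned to the others.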
